A study of Mus musculus with 4 samples.

Results

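The 9 genes described here write, copy, oxidise or remove DNA methylation: the DNA methyltransferase genes *Dnmt1*, *Dnmt3a* and *Dnmt3b*, the genes *Uhrf1* and *Uhrf2*, the oxidases *Tet1*, *Tet2* and *Tet3*, and the glycosylase *Tdg*. They were taken by gene name from a table of 56883 genes, and 9 of 9 passed the filter on low values that left 14323 genes for testing. RNA was sequenced from tdTomato-positive cells that had been FAC-sorted from the basal telencephalon of E14.5 mouse embryos, with 2 libraries per genotype. The control embryos carried *Sst-Cre/tdTomato* and the *Dnmt1* KO embryos *Sst-Cre/tdTomato/Dnmt1 loxP2*, so that the *Sst-Cre* driver and the reporter were common to both and the floxed *Dnmt1* allele set them apart. Cre was expressed from the *Sst* locus, which restricts recombination to cells that have switched on somatostatin, and the samples of a genotype were handled apart, with every sample a pool of cells from several embryos. The p-values rest on the spread between such pools, shared over genes by the test, and not on that between single animals. Whether a single embryo could contribute to both samples of a genotype is not stated. The libraries held 6970247 to 8376711 reads. The defining genes of the labelled cell type were abundant: *Sst*, *Lhx6* and *Gad1* reached at least 1144 normalized counts (reads divided by the library's size factor) in every library. Some of the 18 interneuron identity genes listed below were far less abundant. Genes of radial glia and dividing cells were abundant too. In control libraries *Vim* had 3827 and 3964, *Nes* 2881 and 2780, and *Mki67* 2553 and 2500 normalized counts. These levels do not show how pure the sorted cells were.

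In mammals, DNMT1 copies methylation onto the newly made strand after DNA replication, and UHRF1 recognises the half-methylated site and recruits DNMT1 to it. DNMT3A and DNMT3B set methylation at sites that had none. TET enzymes oxidise 5-methylcytosine, and TDG excises its most oxidised forms, so that base excision repair can restore an unmethylated cytosine. Neurons that have stopped dividing no longer replicate their DNA, and DNMT1 and DNMT3A remain expressed in them.

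Of the 9 genes, *Uhrf1* fell to 61.3% of the control mean in *Dnmt1* KO cells, while *Tet2* rose to 123% and *Tet3* to 128%. *Dnmt1* itself, *Dnmt3a*, *Dnmt3b*, *Uhrf2*, *Tet1* and *Tdg* did not pass the test. The count of 2 higher and 1 lower gene has to be read against the whole table, in which 17.3% of all genes tested passed in either direction, 8.3% higher and 8.99% lower in *Dnmt1* KO cells. The median log2 fold change of the 9 genes was 0.037, beside -0.0033 over all genes tested. All tests are limma's moderated test on log2(normalized count + 1) with Benjamini-Hochberg adjustment over all genes tested, called at an adjusted p below 0.05, and every fold change is *Dnmt1* KO minus control on that scale.

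**Figure D1:**
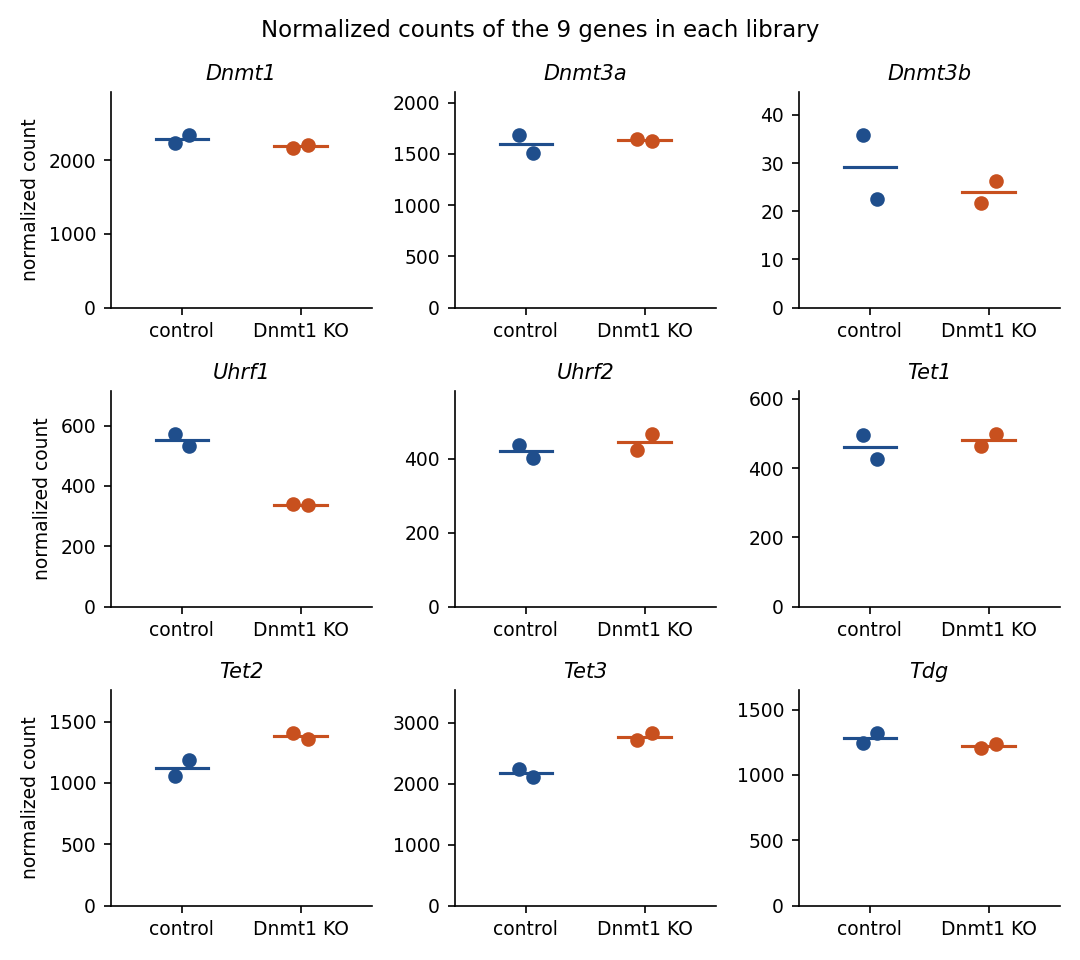
Normalized counts (vertical axes, from 0, scaled to each gene) of the 9 genes in the 2 control and 2 *Dnmt1* KO libraries; points are libraries and bars their means. The libraries of the genotypes are well apart for *Uhrf1*, *Tet2* and *Tet3*, lie close together without overlap for *Dnmt1* and *Tdg*, and overlap for the other 4 genes.

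The floxed exons are shown here because they decide what the *Dnmt1* counts can tell. In the Ensembl canonical transcript of *Dnmt1*, on the minus strand of chromosome 9 in GRCm39, exon 4 lies at chr9:20852669-20852879 and exon 5 at chr9:20851772-20851850, both wholly coding. They are given 5′ to 3′ in the sense of the gene, with CpG dinucleotides in capitals.
Dnmt1 exon 4: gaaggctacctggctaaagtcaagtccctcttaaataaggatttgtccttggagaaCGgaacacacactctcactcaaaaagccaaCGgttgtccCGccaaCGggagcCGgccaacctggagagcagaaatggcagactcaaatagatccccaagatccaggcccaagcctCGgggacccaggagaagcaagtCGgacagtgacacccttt
Dnmt1 exon 5: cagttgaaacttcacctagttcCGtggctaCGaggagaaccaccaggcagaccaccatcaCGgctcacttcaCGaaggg

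Together the exons span 290 bases, which is 4.89% of the 5927-base transcript and 2 bases more than a multiple of 3. Joining exon 3 to exon 6 shifts the reading frame, and in the reference sequence translation would then stop after 77 codons, 2 codons beyond exon 3, in place of 1620. Exon 4 holds 7 CpG sites and exon 5 holds 4. Of 18 annotated coding transcripts of the gene, 6 contain both exons with exactly these ends, 3 extend exon 4 by 21 bases and 10 have a shorter exon 5. The other 37 exons are left in place by recombination, so the count for the whole gene does not by itself show whether these exons were deleted. To check the model, the paper reported lower *Dnmt1* counts in *Dnmt1* KO cells sorted from the E14.5 cortex. It also reported weaker DNMT1 immunostaining in tdTomato-positive cells of E14.5 *Dnmt1* KO embryos and of adult *Dnmt1* KO mice.

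*Dnmt1* reached 2238 and 2341 normalized counts in control libraries against 2164 and 2210 in *Dnmt1* KO libraries. Both *Dnmt1* KO libraries were below both control libraries, by a margin smaller than the distance between the control libraries. The log2 fold change was -0.066 (SE 0.054, limma, 95% interval -0.18 to 0.050, adjusted p = 0.461), or 88.2% to 104% of the control level. Loss of exons 4 and 5 from every transcript with nothing else changed would move the log2 count by -0.072. Both this value and 0 lie inside the interval. The log2 fold change of *Dnmt1* that the paper reported for cells sorted from the cortex lies below the interval, so it was a larger fall. The cause of this difference between cortex and basal telencephalon was not tested. Whether the shortened RNA is as stable as the full one was not tested. The call did not depend on the tool, but the direction did depend on one correction: once the dependence of each library on transcript length and GC content had been taken out, the log2 fold change was 0.018 (adjusted p = 0.863). In bulk RNA, fewer cells of a type and less RNA per cell cannot be told apart, for this gene and for those that follow.

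*Uhrf1*, the partner that brings DNMT1 to half-methylated DNA, had 572 and 531 normalized counts in control libraries against 339 and 337 in *Dnmt1* KO libraries. The genotypes were far apart, and the *Dnmt1* KO libraries were nearly equal. The log2 fold change was -0.70 (SE 0.092, limma, 95% interval -0.90 to -0.51, adjusted p = 8.87e-05), which places the *Dnmt1* KO level between 53.6% and 70.4% of control. On reads recovered from the table the gene was also called by edgeR (adjusted p = 7.05e-05) and DESeq2 (adjusted p = 2.63e-05), and it overlaps no other annotated gene. Removal of the length and GC trend left a log2 fold change of -0.61 (limma, adjusted p = 0.000277).

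*Uhrf2*, which encodes a related protein that does not replace UHRF1 in maintenance, had 438 and 403 normalized counts in control libraries against 423 and 467 in *Dnmt1* KO libraries. The genotypes overlapped, and the log2 fold change of 0.081 (SE 0.096, limma, 95% interval -0.12 to 0.29, adjusted p = 0.628) did not pass the test. The interval of *Uhrf2* does not reach that of *Uhrf1*. Within a library, the ratio of *Uhrf1* to *Uhrf2* normalized counts was 1.31 and 1.32 in control libraries against 0.802 and 0.721 in *Dnmt1* KO libraries. *Uhrf1* thus had the larger count of the pair in both control libraries and the smaller one in both *Dnmt1* KO libraries. These counts are not divided by transcript length, so which gene is larger in *Dnmt1* KO cells depends on the length used. The change in the ratio between genotypes does not. With all exons merged, *Uhrf1* had 104 and *Uhrf2* 40.5 normalized counts per kilobase in control cells. With the transcript of the longest coding sequence they had 150 and 100.2 in control cells, against 92.0 and 106 in *Dnmt1* KO cells. With merged exons of 5277 and 10385 bases, *Uhrf1* would be the larger in *Dnmt1* KO cells too. The log2 ratio differed by -0.79 (exact permutation test, two-sided, p = 0.333, which is the smallest p that 2 against 2 libraries allow, and 0.4 after Benjamini-Hochberg adjustment over 6 ratios).

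The genes for enzymes that set new methylation gave no call. *Dnmt3a* had 1683 and 1510 normalized counts in control libraries against 1643 and 1628 in *Dnmt1* KO libraries. Both *Dnmt1* KO values lay between the control values, and the log2 fold change was 0.037 (SE 0.064, limma, 95% interval -0.10 to 0.17, adjusted p = 0.751). This interval bounds a change to between 93.3% and 113% of control. *Dnmt3b* was close to the detection limit, with 40 and 22 reads in control libraries against 22 and 24 in *Dnmt1* KO libraries, or 35.8 and 22.5 against 21.7 and 26.2 normalized counts. At 22 reads, counting error alone is 21.3%, and the interval of its log2 fold change of -0.24 ran from 49.9% to 143% of control (limma, adjusted p = 0.707), so that a change within these bounds was not detectable at this depth. The other 8 genes had at least 308 reads in every library. The table listed *Dnmt3l*, the catalytically inactive cofactor of the de novo enzymes, and the rodent paralog *Dnmt3c* at 0 in all 4 libraries. Lastly, *Trdmt1*, which encodes a tRNA methyltransferase of the same family, had 17.0 and 19.4 normalized counts in control and 28.6 and 26.2 in *Dnmt1* KO libraries and did not pass the test (log2 fold change 0.57, limma, adjusted p = 0.321).

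Of the 3 TET genes, *Tet2* and *Tet3* passed the test and *Tet1* did not. *Tet3* had 2235 and 2102 normalized counts in control libraries against 2714 and 2827 in *Dnmt1* KO libraries, and the genotypes did not overlap. Its log2 fold change was 0.35 (SE 0.055, limma, 95% interval 0.24 to 0.47, adjusted p = 0.000369). *Tet3* overlaps 3 annotated genes on its own strand and 2 on the other. *Tet2*, whose protein lacks the CXXC DNA-binding domain of TET1 and TET3, rose from 1055 and 1187 normalized counts to 1406 and 1354, again without overlap, by a log2 fold change of 0.30 (SE 0.070, limma, 95% interval 0.15 to 0.45, adjusted p = 0.00768). The call for *Tet2* rested in part on 1 library: without control replicate 1 the log2 fold change was 0.22 and the limma adjusted p 0.0764.

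*Tet1*, best known from pluripotent and germ cells, had 497 and 426 normalized counts in the control libraries against 465 and 498 in the *Dnmt1* KO libraries. The genotypes overlapped, with a log2 fold change of 0.065 (SE 0.098, limma, 95% interval -0.14 to 0.27, adjusted p = 0.711). The ratio of *Tet3* to *Tet1* within a library was 4.50 and 4.94 in control and 5.84 and 5.67 in *Dnmt1* KO libraries, a difference of 0.29 on the log2 scale without overlap (exact permutation test, p = 0.333, the smallest possible, so that the test could not pass). Summed over the 3 genes, TET counts were 0.957 and 0.959 of the summed DNMT counts in the control libraries and 1.20 and 1.21 of them in the *Dnmt1* KO libraries (log2 difference 0.33, exact permutation test, p = 0.333). The summed counts changed order between genotypes, TET below DNMT in both control libraries and above it in both *Dnmt1* KO libraries. They were not divided by transcript length, and which sum is larger depends on the lengths used. The ratio of *Dnmt3a* to *Dnmt1* overlapped, at 0.752 and 0.645 in control and 0.759 and 0.737 in *Dnmt1* KO libraries (exact permutation test, p = 0.667).

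*Tdg*, the glycosylase that acts after the TET enzymes, had 1247 and 1320 normalized counts in control libraries against 1203 and 1235 in *Dnmt1* KO libraries. Both *Dnmt1* KO libraries were lower, and the gap between genotypes was smaller than the spread within either. The log2 fold change was -0.074 (SE 0.064, limma, 95% interval -0.21 to 0.064, adjusted p = 0.490). With *Dnmt1*, *Uhrf1*, *Tet2* and *Tet3*, it makes 5 genes whose libraries did not overlap between genotypes, 2 above and 3 below control. With 2 libraries a side this is a weak criterion, met by 57.4% of all genes tested.

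**Figure D2:**
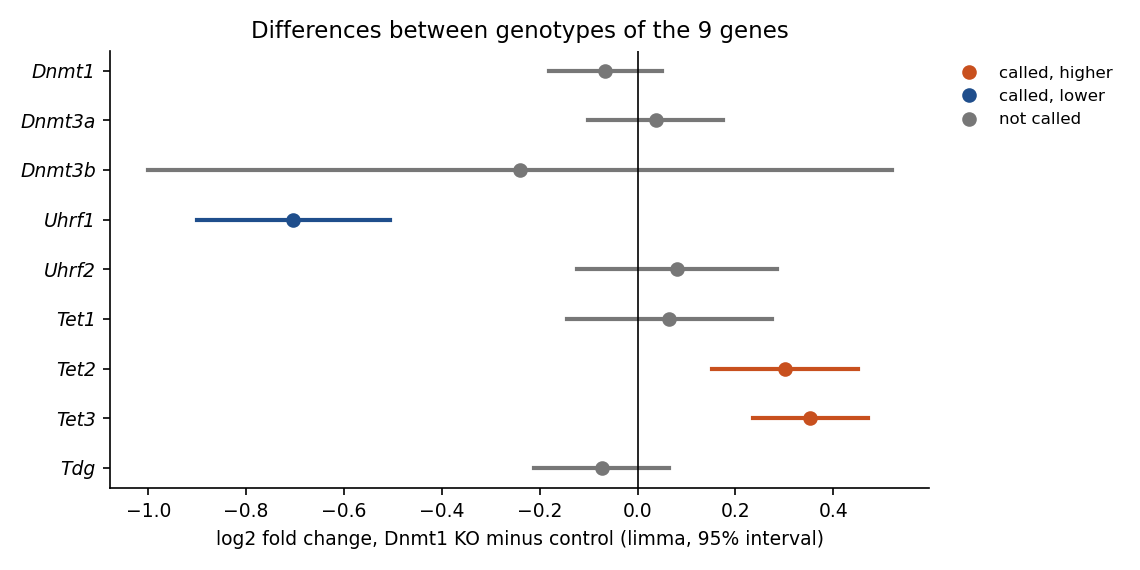
Log2 fold change of each of the 9 genes (horizontal axis, *Dnmt1* KO minus control, limma) with its 95% interval; colour marks the call. The intervals of *Uhrf1*, *Tet2* and *Tet3* exclude 0, and the interval of *Dnmt3b* is the widest.

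The sequences just upstream of an annotated start of each of the 3 called genes are shown because CpG content sets how much methylation a start site can carry. Each is the 250 bases before the start of the Ensembl canonical transcript in GRCm39, written 5′ to 3′ on the strand of the gene with CpG dinucleotides in capitals: *Uhrf1* at chr17:56610025-56610274 on the plus strand, *Tet2* at chr3:133250762-133251011 and *Tet3* at chr6:83433375-83433624, both on the minus strand.
Uhrf1: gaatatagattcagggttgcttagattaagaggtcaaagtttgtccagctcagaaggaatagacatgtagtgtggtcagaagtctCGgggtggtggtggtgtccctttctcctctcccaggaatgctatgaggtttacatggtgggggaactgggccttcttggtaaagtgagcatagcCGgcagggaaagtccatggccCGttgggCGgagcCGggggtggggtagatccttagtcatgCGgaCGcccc
Tet2: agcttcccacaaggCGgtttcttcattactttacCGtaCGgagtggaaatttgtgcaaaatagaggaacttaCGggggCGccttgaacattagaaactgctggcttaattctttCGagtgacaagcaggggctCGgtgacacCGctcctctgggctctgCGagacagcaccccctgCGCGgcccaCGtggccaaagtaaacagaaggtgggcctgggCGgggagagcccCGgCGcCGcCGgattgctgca
Tet3: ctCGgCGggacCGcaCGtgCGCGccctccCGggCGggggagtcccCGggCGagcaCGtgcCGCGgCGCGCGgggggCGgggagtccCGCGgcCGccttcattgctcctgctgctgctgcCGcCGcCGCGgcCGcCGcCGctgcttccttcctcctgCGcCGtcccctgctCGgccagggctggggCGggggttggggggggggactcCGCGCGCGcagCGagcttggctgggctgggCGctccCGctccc

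The windows held 7 CpG sites for *Uhrf1*, 17 for *Tet2* and 38 for *Tet3*, and the median over 21757 protein-coding genes was 8. The *Tet3* window was at percentile 99.0 of all windows, that of *Tet2* at percentile 77.3 and that of *Uhrf1* at percentile 45.6. Genes that did not pass the test ranged from 2 sites at *Tet1* to 39 at *Dnmt3a*. *Dnmt1* had 7 sites, *Tdg* 13, *Dnmt3b* 17 and *Uhrf2* 21. The windows cover only bases upstream of the canonical start. Exon 1 of *Dnmt1*, directly downstream of its window, held 25 CpG sites in 272 bases. The windows of *Dnmt1*, *Dnmt3a*, *Dnmt3b*, *Uhrf2*, *Tet1* and *Tet3* lie within the annotated span of their gene, and that of *Tet2* does in part. They need not describe other starts of these genes. Methylation of these windows was not analysed here.

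Per kilobase of the transcript with the longest coding sequence, *Dnmt1* and *Tet3* had the highest levels in control cells, with 366 ± 11.6 and 365 ± 15.9 normalized counts per kilobase (SD, n = 2), and these did not differ beyond their spread. *Tdg* followed with 187 ± 7.56 normalized counts per kilobase, then *Dnmt3a* with 161 ± 12.4 and *Uhrf1* with 150 ± 7.88, and the last 2 overlapped when their SD was considered. *Tet2* had 114 ± 9.53 and *Uhrf2* 100.2 ± 5.79, whereas *Tet1* had 32.1 ± 3.49 and *Dnmt3b* 6.50 ± 2.10 normalized counts per kilobase. Among 12278 tested protein-coding genes, the control level per kilobase of *Dnmt1* was at percentile 92.4 and that of *Dnmt3b* at percentile 7.43. In *Dnmt1* KO cells *Tet3* came first with 466 ± 13.3, ahead of *Dnmt1* with 350 ± 5.23 normalized counts per kilobase, and *Uhrf1* moved from place 5 to place 7 with 92.0 ± 0.537. The place of *Tet3* depended on the length used: with its longest annotated transcript the control level was 199 and with all exons merged 130 normalized counts per kilobase.

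Of 52 genes listed as working with these enzymes, 43 could be tested, and *Dnmt1* KO cells had 2 of them higher and 10 lower. Over all genes tested, 8.3% were called higher and 8.99% lower. The counts of this list and of the shorter lists below are to be read against these shares. Their median log2 fold change was -0.070. The 13 genes that act with DNMT1 in maintenance gave 5 lower and 0 higher calls. *Lig1*, the ligase that joins Okazaki fragments and whose product is bound by UHRF1, fell from 649 and 669 to 409 and 418 normalized counts (log2 fold change -0.67, limma, adjusted p = 6.24e-05). *Hells*, a chromatin remodeller needed for normal methylation, fell by 0.61 on the log2 scale, and *Pclaf*, which binds the replication clamp, by 0.63. The replication clamp gene *Pcna* fell by 0.34 and the histone deacetylase gene *Hdac1* by 0.37. *Hdac2*, *Ehmt1*, *Ehmt2*, *Usp7*, *Dmap1*, *Suv39h1*, *Cdca7* and *Cdca7l* did not pass the test.

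Among the TET partners, *Ogt*, the O-GlcNAc transferase that binds TET2 and TET3, rose from 1204 and 1131 to 1557 and 1406 normalized counts (log2 fold change 0.34, limma, adjusted p = 0.00294). *Cxxc5*, a CXXC protein related to the one that binds TET2, fell from 210 and 192 to 109 and 113 (log2 fold change -0.85, limma, adjusted p = 0.000854). Of 5 tested genes in this group, 1 was thus higher and 1 lower. *Cxxc4* (log2 fold change 0.15, limma, adjusted p = 0.279), *Qser1* and *Hmces* did not pass the test. In base excision repair 3 of 11 tested genes were lower, beside 8.99% of all genes tested. On the log2 scale they were *Xrcc1*, a scaffold protein of the repair (-0.35), *Neil3*, a glycosylase (-0.74), and *Gadd45g*, a stress-response gene linked to demethylation (-0.74). In the supply of 2-oxoglutarate and ascorbate, cofactors of the TET enzymes, *Idh2* was lower (-0.33) and the ascorbate transporter gene *Slc23a2* higher (0.44). None of 8 tested genes for the supply and recycling of S-adenosylmethionine, the methyl donor, passed limma's test, with 0 called by edgeR, 0 by DESeq2 and 0 at an unadjusted p under 0.05, and the most abundant of them, *Ahcyl1*, had a log2 fold change of 0.091. DESeq2 on recovered reads called 1 higher (*Ogt*) and 5 lower genes (*Lig1*, *Hells*, *Cxxc5*, *Gadd45g* and *Idh2*) of the 43, and limma called 4 lower genes without control replicate 2.

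**Figure D3:**
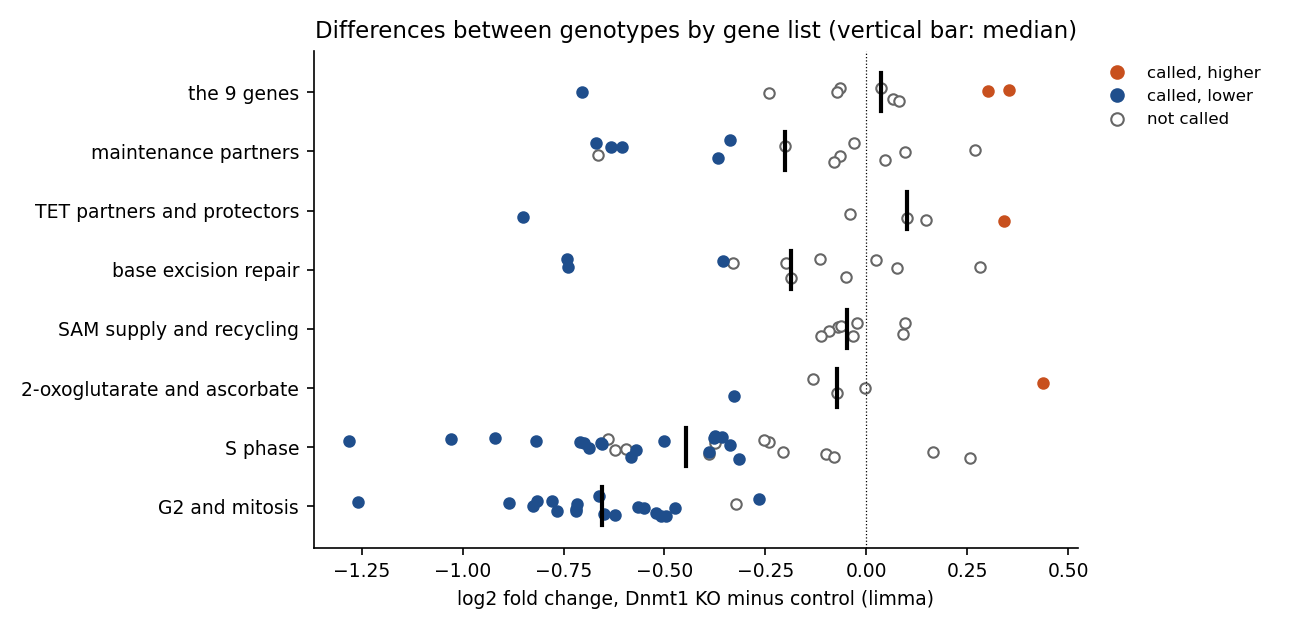
Log2 fold changes (horizontal axis, *Dnmt1* KO minus control, limma) of the tested genes of each list; filled points passed the test and vertical bars are medians. *Pcna* is in both the maintenance and the S phase list, and the S phase and mitosis lists lie mostly to the left of 0.

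*Uhrf1*, *Lig1*, *Hells*, *Pclaf* and *Pcna* are expressed most in cells that replicate DNA, and genes of dividing cells moved with them. Of 30 S phase genes, 18 passed as lower and 0 as higher (limma; 12 lower by DESeq2, and 10 by limma without control replicate 2). Their log2 fold changes had a median of -0.45, and their summed level was 76.1% of control. The log2 fold change of *Uhrf1* was below that of 25 of the 30 genes and above that of 5, whereas the value of *Dnmt1* was above that of 28. The 25 genes include *Pola1* (0.26) and *Ung* (0.17), which were higher in *Dnmt1* KO cells without passing the test. In other lists the place of *Uhrf1* was different. It lay in the middle of 20 genes of G2 and mitosis (median log2 fold change -0.66), with 9 below and 11 above it, and fell less than 7 of 10 radial glia genes (median -0.81). Of the G2 and mitosis genes, 19 were lower (12 without control replicate 1), at a summed level of 68.3% of control, and of the radial glia genes 7 were lower and 1, *Sox2*, was higher, at a summed level of 60.6%, beside 61.3% for *Uhrf1* itself. *Mcm7* and *Rrm1* led the S phase list by level (log2 fold changes -0.32 and -0.38), *Mki67* and *Top2a* the mitosis list (-0.50 and -0.52), and *Vim* and *Nes* the radial glia list (-1.03 and -1.03). Against the summed S phase list of its own library, *Uhrf1* was 0.0624 and 0.0566 in control and 0.0478 and 0.0479 in *Dnmt1* KO libraries, and *Dnmt1* 0.244 and 0.250 in control and 0.305 and 0.315 in *Dnmt1* KO libraries. These ratios differed by -0.31 for *Uhrf1* and 0.33 for *Dnmt1* on the log2 scale, without overlap between genotypes (exact permutation test, p = 0.333 for each, the smallest possible), and ratios to the sums of other lists were not computed. The part of dividing cells in the fall of *Uhrf1* was not tested.

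**Figure D4:**
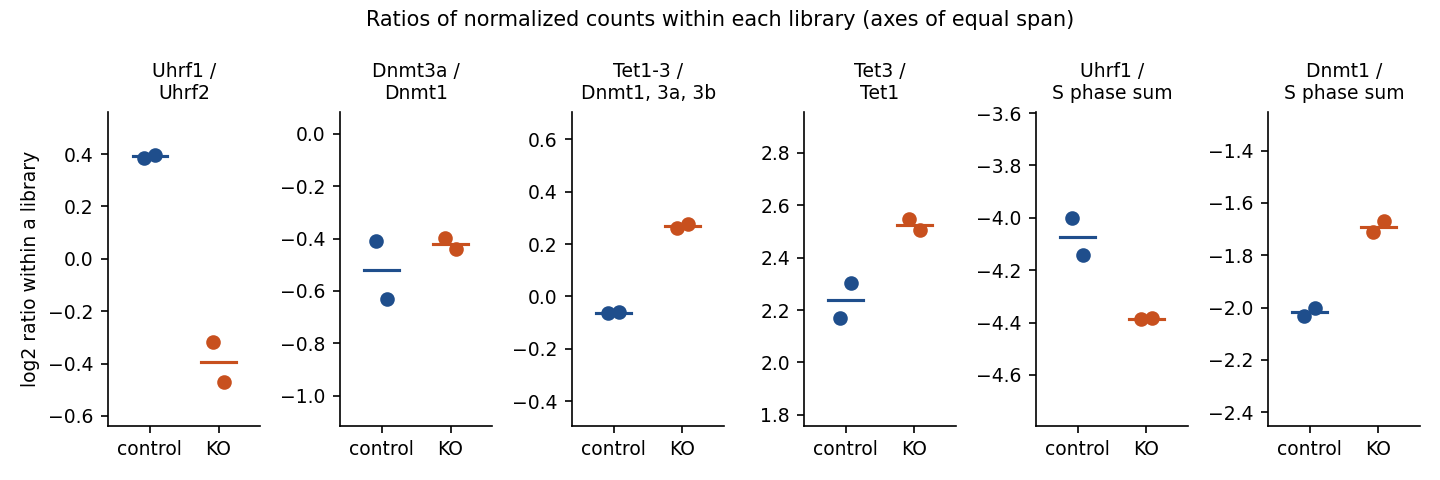
Log2 ratios of normalized counts within each library (vertical axes of equal span) for 6 pairs; points are libraries and bars their means. The genotypes overlap for *Dnmt3a* to *Dnmt1* only. The log2 ratio of *Uhrf1* to *Uhrf2* changes sign, in counts not divided by transcript length.

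Markers of the labelled cells and of other cells also differed between the genotypes. Interneuron identity genes were higher for 16 of 18 in *Dnmt1* KO cells, at a summed level of 154% of control, with *Sst* at 5580 and 5963 against 8303 and 7825 normalized counts, *Lhx6* at a log2 fold change of 0.73 and *Gad1* of 0.63. Genes of the excitatory lineage were lower for 9 of 11, at 54.4% of control, with *Tbr1* (-0.66) and *Neurod2* (-0.78) as the most abundant. Blood genes were lower for 7 of 7 tested of 12, with summed levels of 2402 to 2597 in control and 577 to 593 normalized counts in *Dnmt1* KO libraries and with *Gata1* listed at 0 throughout; *Hba-a2* fell by 2.09 and *Hbb-bt* by 1.61 on the log2 scale. Vascular, mesenchymal, microglial and oligodendrocyte lineage genes were lower for 10 of 15 tested (4 without control replicate 2), at 46.5% of control, with *Kdr* (-1.03) and *Cdh5* (-1.72) as the most abundant. Neither *Jun* (0.065) nor *Egr1* (0.25) nor any other of 8 tested genes of the dissociation response passed limma's test (1 at an unadjusted p under 0.05, 0 called by edgeR and 0 by DESeq2). The part of the labelled cells and of the other cells in the differences of *Uhrf1*, *Tet2* and *Tet3* was not tested.

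Over the 4 libraries, the genes whose centred log2 values lay nearest to those of *Uhrf1*, out of 8144 abundant protein-coding genes, were *Zic1* (Euclidean distance 0.017), *H1f1* (0.028) and *Zfp423* (0.051). Those nearest to *Dnmt1* were *Chmp1b* (0.0087), *Hnrnpr* (0.012) and *Hspa9* (0.013). Silencing of germline genes is a known role of DNA methylation, and these genes were hardly detected: of 16, 10 were at 0 in all 4 libraries and only *Brdt* passed the filter, with 15.2 and 18.4 normalized counts in control and 23.7 and 15.3 in *Dnmt1* KO libraries (limma, adjusted p = 0.821).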

How the data were processed

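The files held total RNA sequencing of sorted cells from the E14.5 basal telencephalon in 4 libraries, 2 per genotype, with groups and replicate numbers taken from the sample labels and RNA from 50000 cells pooled per genotype. Per the labels and the methods, the authors used Trim Galore for trimming, STAR for alignment to GRCm39, Salmon for gene counts and DESeq2 for scaling. The deposited signal is 1 normalized count per gene and library, a count of reads divided by a size factor, as checked on the values: 100% of values above 0 gave a whole number of reads (tolerance 1e-04). The library kit is stranded. Whether reads were counted by strand, and how molecular identifiers were used, is not given in the sources used here. Intervals and counting errors cover only the spread they name. *Dnmt3a*, *Dnmt3b*, *Uhrf2*, *Tet2*, *Tet3* and *Tdg* overlap annotated genes on the opposite strand. *Dnmt1*, *Dnmt3b*, *Tet1* and *Tet3* overlap annotated genes on the same strand. The values of all these genes are uncertain to that extent.

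The test was limma 3.58.1 (R 4.3.3) on log2(normalized count + 1), for genes whose normalized count averaged 10 or more, with genotype as the only term, a trended prior variance and Benjamini-Hochberg adjustment over 14323 genes. The script was tested on simulated data. Alternatives were pseudocounts of 0.5 and 10, filters at 1 and 50, TMM and quantile scaling, limma without the variance trend, edgeR 4.0.16, DESeq2 1.42.0 and limma-voom on reads recovered from the table, values without their length and GC trend, leaving out single libraries, and a replicate block. Ratios within a library were compared with an exact two-sided permutation test. Levels per kilobase used the transcript with the longest coding sequence, and exons and upstream windows the Ensembl canonical transcript, of GENCODE M39. The 9 genes, the gene lists and the tests were chosen with earlier results of these data known. The named genes were the 9 genes, every called gene of the pathway lists, the most abundant gene of each pathway group without a call, the 2 tested genes with the highest mean over the 4 libraries in each marker list plus *Sst*, *Lhx6* and *Gad1*, and the 3 genes nearest to *Dnmt1* and to *Uhrf1* among protein-coding genes with a mean of at least 100. *Gata1*, *Sox2* and genes named as not passing the test, at 0 or as called by DESeq2 were added after their values were seen. The values of 1 gene that this rule names are not reported here.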

Additional observations from a re-analysis of the deposited data

How the results depend on the processing

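The calls of *Uhrf1*, *Tet2* and *Tet3* held under 15, 14 and 15 of 16 alternatives. Without the variance trend, limma called no gene at all (smallest adjusted p 0.0592, with 3339 genes at an unadjusted p under 0.05), so that the counts were 0 higher and 0 lower among the 9 genes, 0 and 0 among the pathway genes and 0 in every marker list, with adjusted p-values of 0.0683 for *Uhrf1*, 0.218 for *Tet2* and 0.146 for *Tet3*. DESeq2 called 640 higher and 687 lower genes of the whole table, and 1 higher and 5 lower pathway genes. Removal of the length and GC trend left 5 lower pathway genes and turned the direction of 2 uncalled genes, *Dnmt1* (0.018) and *Tet1* (-0.051). Quantile scaling turned that of *Dnmt3a* (-0.013). The cause of these differences was not tested.

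Leaving out 1 library at a time gave 1 to 2 higher and, each time, 1 lower of the 9 genes, 1 to 2 higher and 4 to 10 lower pathway genes, 10 to 17 lower S phase genes, 12 to 18 lower genes of G2 and mitosis, and 787 to 959 higher and 738 to 1246 lower genes of the whole table. *Tet2* was the gene lost, without control replicate 1 (adjusted p 0.0764), and the lowest pathway count of 4 came without control replicate 2; without *Dnmt1* KO replicate 1 there were 6 lower. Log2 fold changes ranged from -0.041 to 0.12 for *Dnmt3a*, from -0.57 to 0.084 for *Dnmt3b* and from -0.046 to 0.18 for *Tet1*. The direction turned without control replicate 2 for *Dnmt3a* and *Tet1*, and without control replicate 1 for *Dnmt3b*. The vascular and related list fell to 6 lower genes under DESeq2, 5 with a filter at 50, and 4 to 9 with a library left out. With all exons merged, control levels per kilobase were 269 for *Dnmt1*, 93.8 for *Dnmt3a*, 136 for *Tdg*, 63.2 for *Tet2*, 104 for *Uhrf1* and 40.5 for *Uhrf2*, and *Uhrf1* had 134 with its longest transcript.

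Same-numbered libraries did not deviate together (correlation over genes -0.085, or 0.016 at a mean of at least 100), so the numbers were not taken to pair them. With a replicate block, 2 higher and 1 lower of the 9 genes and 2 higher and 10 lower pathway genes were called. Depth limited *Dnmt3b*, at 22 to 40 reads.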
